A study of Pavo cristatus and Gallus gallus and Meleagris gallopavo with 54 samples.

Results

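Emu embryonic fibroblasts grown in DMEM high glucose were set against emu embryonic fibroblasts grown in DMEM/F12, as 3 libraries against 3 libraries, 6 of the 54 samples of a series on 7 bird species. The members were chosen by the medium in the labels and by no measured value, and all 10274 emu peaks of the table were used. Fibroblasts are the connective tissue cells that lay down collagen and other matrix. Here they were isolated from the trunk of emu embryos of both sexes at a stage equivalent to chicken HH36, after head, limbs, skin, fat and organs had been removed, cultured in medium with 10% fetal bovine serum and taken for RNA at passage 5, in both media alike. The high glucose group held a female numbered 01, a male numbered 02 and a female numbered 03, whose label carries the note 2nd. The F12 group held a female numbered 01, a female numbered 02 and a male numbered 03. Values of the libraries are given in these orders throughout. The study used the media to hold medium-associated variation in check in a comparison of the sexes. The paper also compared the media, reports RPS6 as unaffected by them, and does not exclude a bias of the transcriptome by the medium. The comparison here asked at which peaks of RNA 5′ ends the level differed between the media.

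DMEM is a plain mixture of salts, amino acids, vitamins and glucose. DMEM/F12 combines DMEM with Ham's F-12, which brings trace metals such as zinc and copper, further amino acids, lipids and vitamins, and holds less glucose than the high glucose form of DMEM. Glucose and all the other ingredients differed together between the 2 groups and cannot be told apart. Cap analysis of gene expression (CAGE) captures the 5′ end of capped RNA, so a peak marks where such ends lie and its tags count them. The paper sorted peaks outside promoter regions with a classifier and kept only those classed as promoters. All peaks were tested here whatever their class, so those in introns, exons or intergenic sequence may not be start sites of transcription. A level is given in TPM, the tags of a peak scaled to a common library total, and a difference is the mean of log2(TPM + 1) in high glucose minus that in F12, fitted with sex as a covariate.

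Libraries were of even depth, at 10667083 to 11048017 tags, so that 1 tag was worth 0.0905 to 0.0937 TPM. The labelled sexes fitted the W chromosome, which only female birds carry: of its 20 peaks, 9 were at 0 in each male library and none in any female library. The other W peaks did hold tags in the males. Summed over the W peaks, the males had 464 and 458 TPM, against 881 to 903 TPM in the females. The numbers 02 and 03, in contrast, join a male culture in one medium to a female culture in the other, so neither number can be a single embryo. The libraries numbered 01 correlated at r = 0.978 across peaks. Those numbered 02 correlated at 0.930 and those numbered 03 at 0.952, while the 2 male libraries correlated at 0.981, and high glucose female 03 with F12 female 02 at 0.973. The paper describes 3 embryos per species, each grown in 2 culture conditions. The 2 male libraries may therefore come from a single embryo, which the labels do not settle. Media were compared without pairing because of the conflict in the numbers. Where the labels do not tie cultures to embryos, the p-values measure only the spread between these samples, which may not be independent. Among the first 3 principal components, the first, with 41.4% of the variance, set the males apart from the females. The second, with 31.1%, placed high glucose at 28.25, 2.34 and -9.47 and F12 at 14.77, -26.44 and -9.45. There the media overlapped, and the libraries numbered 01 were the highest of each medium. The third, with 20.8%, placed high glucose at 7.91, 6.88 and 23.27 and F12 at -17.95, -3.31 and -16.80, without overlap.

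**Figure D1:**
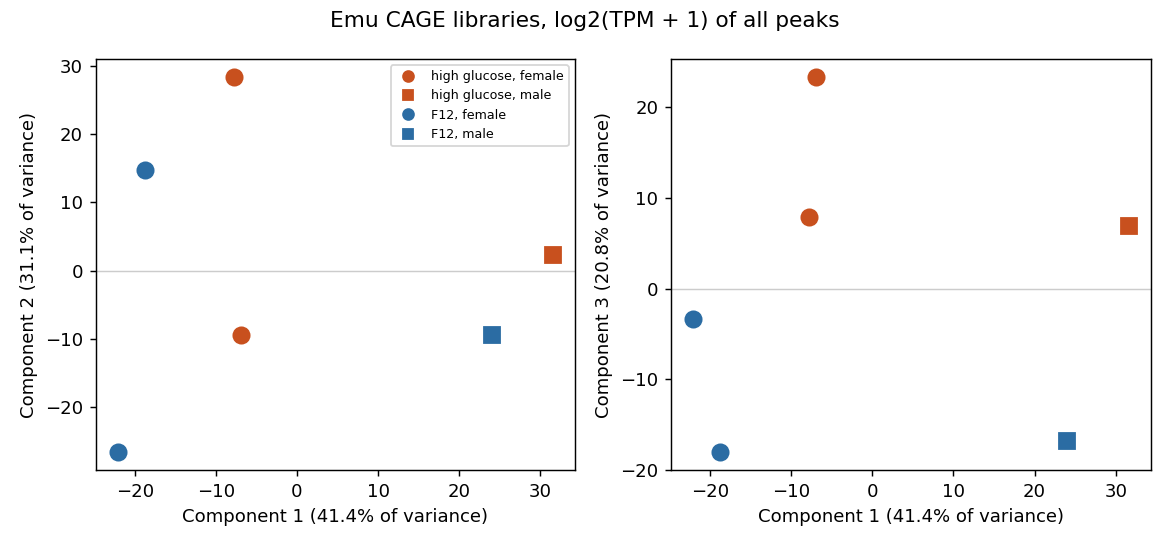
Principal components of log2(TPM + 1) over all emu peaks, with component 1 against component 2 (left) and against component 3 (right) and the share of variance on each axis. Each point is 1 library, with high glucose in orange, F12 in blue, circles for females and squares for males. Component 1 separates the sexes, and the 3 high glucose libraries lie above 0 and the 3 F12 libraries below 0 on component 3.

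In high glucose, 119 peaks were higher and 67 were lower than in F12, out of 10274 tested (limma, Benjamini-Hochberg adjusted p under 0.05). These 186 peaks are 1.81% of all peaks, 1.16% higher and 0.652% lower, and they belonged to 177 gene models. An unadjusted p under 0.05 was reached by 1767 peaks (17.2%), and the smallest adjusted p was 0.0118. The called peaks had a median log2 difference of 0.94 where they were higher and -0.76 where they were lower, with a median of 0.028 over all peaks. Of the peaks called higher, 53 differed by at least 1 on the log2 scale, as did 16 of those called lower. The 3 libraries of each medium did not overlap for 116 of the 119 higher and 56 of the 67 lower peaks. Over all peaks, 11.6% were higher and 7.08% lower without overlap. A quasi-likelihood test of edgeR on tags recovered from the TPM also called 100 of the 119 and 65 of the 67. The count needed all 6 libraries. It was 40 without F12 female 02, 8 without F12 female 01 and 0 without any one of the other 4 libraries, where limma still gave 979 to 1501 peaks at an unadjusted p under 0.05. Without either male the sex term fits the remaining male exactly, so the medium is then compared among the females only.

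**Figure D2:**
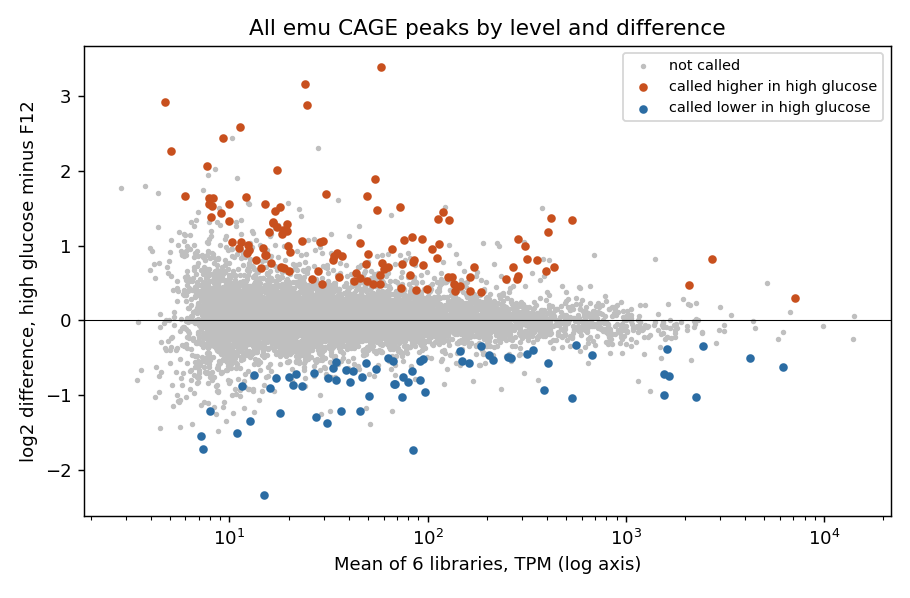
All 10274 emu peaks by their mean over the 6 libraries (TPM, log axis) and their log2 difference, high glucose minus F12. Orange points are the 119 peaks called higher and blue points the 67 called lower, and those called higher span levels from 4.74 to 7193 TPM on average.

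Emu gene models carry only an identifier in the table, and few have a name. Genes are therefore given by identifier and position on the emu assembly ZJU1.0, and no function is claimed for those without a name. The 10 peaks of smallest p in each direction, with at least 10 TPM on average in one medium and no overlap, lay in promoters, introns, an exon and intergenic sequence of several chromosomes.

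The steepest difference of all lay in intron 3 of 49 of g8957 on chromosome 10 (chr10:15552021-15552200, minus strand). This peak had 63.9, 176 and 83.1 TPM in high glucose, against 8.24, 4.28 and 16.2 TPM in F12. Even the lowest high glucose library was thus well above the highest F12 library, and the log2 difference was 3.39 ± 0.22 (SE, adjusted p = 0.0199). A weaker peak of the same gene, in intron 2, had 4.47, 11.1 and 4.69 TPM in high glucose against 1.99, 1.49 and 6.42 TPM in F12. There the media overlapped and the test was not passed (log2 difference 0.92, adjusted p = 0.163). The promoter of g8959, the next called peak along the chromosome and on the same strand (chr10:15839336-15839531), was singled out after its values were seen. It had 22.4, 81.1 and 28.6 TPM in high glucose and 3.35, 0.837 and 8.90 TPM in F12. Its log2 difference was 3.16 ± 0.33 (SE, adjusted p = 0.0225), and in both genes the male library was the highest of its medium.

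Upstream of g158 on chromosome 1, a row of 3 intergenic peaks on the minus strand differed in one direction. The strongest difference, at chr1:3460841-3461187 and 8.939 kb from the annotated start, was 48.7, 47.0 and 36.8 TPM in high glucose against 5.79, 3.44 and 6.42 TPM in F12 (log2 difference 2.89 ± 0.21, SE, adjusted p = 0.0199). A second peak, 3.929 kb from the start, had 48.0, 49.2 and 43.5 TPM in high glucose against 11.95, 10.98 and 20.1 TPM in F12 (log2 difference 1.69, adjusted p = 0.0199). The third peak, between them, had 17.6 to 34.6 TPM in high glucose against 6.06 TPM in F12 female 01 and 7.98 TPM in the F12 male, with F12 female 02 above both, and a log2 difference of 1.48 that missed the threshold at an adjusted p of 0.0933. In all 3 peaks the media did not overlap.

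Other higher peaks lay in promoters. The peak of smallest p lay 0.920 kb upstream of g16498 on an unplaced scaffold (positions 127669 to 127758) and had 70.6, 85.9 and 71.4 TPM in high glucose against 19.9, 21.9 and 28.7 TPM in F12. Its log2 difference was 1.66 ± 0.08 (SE, adjusted p = 0.0118). At the start of g7048 (chr6:37707323-37707436) the values were 30.5, 27.6 and 27.8 TPM in high glucose and 5.88, 5.77 and 7.43 TPM in F12, a log2 difference of 2.02 ± 0.13 (SE). At the start of g10011 (chr13:5548085-5548259) they were 90.8, 85.3 and 86.8 TPM in high glucose and 45.0, 41.4 and 48.2 TPM in F12. The other 2 promoter peaks of g10011, 0.488 and 0.136 kb upstream, had log2 differences of -0.13 and -0.06 with overlapping media, and neither was called. The difference between the peaks was not itself tested. The promoter of g6515 (chr5:70915394-70915652) had 158, 155 and 145 TPM in high glucose against 68.3, 76.0 and 80.4 TPM in F12.

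The remaining higher peaks of this set lay within genes or between them. A peak in intron 23 of 37 of g1733, with g1735 as the nearest start (chr1:64838334-64838565), had 150, 215 and 161 TPM in high glucose against 54.3, 48.0 and 93.1 TPM in F12. One in intron 19 of 25 of g15617 had 395, 444 and 326 TPM in high glucose against 169, 160 and 215 TPM in F12. An intergenic peak 15.3 kb from g2047 had 475, 467 and 421 TPM in high glucose against 248, 243 and 285 TPM in F12. Another, 64.9 kb from g3385, had 24.5, 28.7 and 22.3 TPM in high glucose and 7.69, 6.70 and 11.7 TPM in F12. All 4 separated the media completely, with log2 differences from 0.81 to 1.46.

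The lower peaks of this set included some of high level. A peak in intron 1 of 63 of g8015 (chr8:23170205-23170756) had 935, 1013 and 1172 TPM in high glucose against 1929, 2146 and 2123 TPM in F12, a log2 difference of -0.99 ± 0.10 (SE, adjusted p = 0.0216). An intergenic peak 30.4 kb from g7328 had 1167, 1080 and 1296 TPM in high glucose against 2102, 1958 and 1790 TPM in F12 (log2 difference -0.72). The promoter of g4341 (chr3:61737113-61737508) had 356, 322 and 373 TPM in high glucose and 794, 637 and 741 TPM in F12. A weaker promoter peak of g4341 lay in the same direction, at 6.57, 7.59 and 9.38 TPM in high glucose against 14.03, 11.7 and 17.2 TPM in F12, but did not pass the test (adjusted p = 0.117).

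Lower peaks of low level included the promoter of g3410 (chr2:86582982-86583093), with 17.9, 26.5 and 20.7 TPM in high glucose against 43.8, 49.9 and 61.3 TPM in F12 (log2 difference -1.22, adjusted p = 0.0199). A peak 2.086 kb upstream of g4390 on chromosome 3 had 13.8, 16.7 and 15.6 TPM in high glucose against 32.8, 42.2 and 42.9 TPM in F12. In exon 50 of 54 of g8834, with g8833 as the nearest start, a peak had 6.48, 3.89 and 5.34 TPM in high glucose and 17.8, 16.7 and 15.1 TPM in F12 (log2 difference -1.51). The promoter of g8833 itself, on the same strand, had 2015, 1286 and 1936 TPM in high glucose against 3026, 2399 and 2087 TPM in F12, without overlap, and did not pass the test (adjusted p = 0.0754). The intergenic peaks nearest to g6142, g7957, g1513 and g229 complete the 10, with log2 differences from -0.90 to -0.46. An intergenic peak on chromosome 1, assigned to g348 over 4566.5 kb, was named for being the steepest of the lower peaks. It had 5.11, 1.57 and 6.09 TPM in high glucose against 21.4, 41.0 and 14.3 TPM in F12 (log2 difference -2.34, adjusted p = 0.0277).

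Peaks of over 300 TPM on average held 26 of the calls, 11 higher and 15 lower, among 503 such peaks (5.17%, against 1.81% of all peaks). The most active of the higher promoters, g8818 on chromosome 10, had 3456, 3996 and 2943 TPM in high glucose against 1649, 1612 and 2785 TPM in F12 (log2 difference 0.82, adjusted p = 0.0350). Here the F12 male came close to the lowest high glucose library without reaching it. The most active of the lower promoters, g14168 on chromosome 24, had 5759, 3429 and 5653 TPM in high glucose against 8643, 8316 and 5694 TPM in F12 (log2 difference -0.62, adjusted p = 0.0199). Within each sex its high glucose libraries were lower. Across the sexes the F12 male, at 5694 TPM, lay below high glucose female 01, at 5759 TPM. Both genes were picked for their level after the values were seen. Called promoters of this class on the Z chromosome included those of g13128 and g12646. Males carry a pair of this chromosome and females a single Z beside the W. In emu the paper describes a pseudoautosomal region, a stretch shared by Z and W, whose genes showed no shift between the sexes. Whether g13128, g12646 and the other called Z promoters lie in it was not determined here. The promoter of g13128 (chrZ:79533005-79533218) had 750, 714 and 840 TPM in high glucose and 244, 392 and 287 TPM in F12. That of g12646 had 628, 580 and 492 TPM in high glucose and 225, 243 and 274 TPM in F12. Both separated the media, and the male was the highest library of its medium only for g12646 in F12. The Z promoter of g12528 was also called higher (log2 difference 0.48, adjusted p = 0.0283). It had 2432.5 TPM in high glucose female 01 and 1687 TPM in the F12 male. The Z promoter of g12998 was called lower (log2 difference -0.93, adjusted p = 0.0403), with 354 and 345 TPM in the same libraries. These libraries differ in sex as well as in medium, and for g12998 they do not show the direction of the call. Like all 67 peaks called lower, it was lower in high glucose both among the females and between the males.

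Called peaks that lay close together moved in one direction. There were 12 pairs of neighbouring called peaks within 10 kb, and in all 12 both members were higher or both were lower. Most of these pairs were 2 peaks of a single gene and are counted again in the next paragraph. No rate of agreement was taken for called peaks further apart. Of the pairs, 10 had both peaks on one strand. The 2 pairs on opposite strands were 183 bases apart on chromosome 17, between g11288 and g11291 (log2 differences 1.30 and 1.05), and 1900 bases apart on chromosome 27, at the starts of g14689 and g14690 (-0.33 and -0.50). On the unplaced scaffold of g16498, the promoter peak of g16500 lay 5247 bases away and had 47.0, 29.7 and 40.7 TPM in high glucose against 21.8, 19.2 and 13.9 TPM in F12 (log2 difference 1.06). On chromosome 3, the promoters of g4310 and g4311 were 6269 bases apart and had log2 differences of 1.51 and 0.61. Close peaks can belong to 1 promoter, so that such pairs are not independent.

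Of the transcript models with a called peak, 8 had a pair of called peaks, and in 7 of the 8 both moved in one direction. These 7 are among the neighbouring pairs above and are no further observation. At g13128 the second peak, downstream of the first, had 10.6, 14.9 and 10.9 TPM in high glucose against 3.80, 4.09 and 4.04 TPM in F12. At g14800 on chromosome 27, 2 exon peaks were lower, the stronger with 3314, 3689 and 3557 TPM in high glucose against 4553, 5377 and 5055 TPM in F12. The exception was g348, whose 2 peaks lie far apart on chromosome 1 and share only the nearest gene model: besides the steep lower peak, the other had 14.5, 15.4 and 15.3 TPM in high glucose against 6.79, 7.91 and 6.88 TPM in F12. At g5207 on chromosome 4, promoter peaks of its 2 transcript models were both lower, with log2 differences of -1.22 and -1.72. Beside the peaks called higher lay 72 uncalled peaks of the same models, of which 51 had a positive difference (median 0.21), and beside those called lower lay 60, of which 40 had a negative one (median -0.15). Over all peaks 56.6% were positive and 43.4% negative.

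By position, 98 of 6002 promoter peaks were called (1.63%), 53 of 2819 intergenic peaks (1.88%), 29 of 1231 intron peaks (2.36%) and 6 of 222 exon peaks (2.70%). Over all peaks the share was 1.81%, and the classes were not tested against each other. Promoter peaks held 67.0% ± 0.494 of the summed TPM in high glucose and 67.4% ± 0.413 in F12 (SD, n = 3 each), a difference of -0.339 percentage points with a p of 0.5 by a two-sided exact permutation test, in which 3 against 3 cannot go below 0.1. Intergenic peaks held 19.9% and 19.5% (exact p = 0.2). Chromosome 1 had 34 called of 1365 peaks (2.49%). On chromosome 27 all 5 called peaks were lower, out of 176 (2.84%, against 0.652% of all peaks). They included the close pairs at g14689 and g14690 and within g14800, so they are not 5 independent places. On the Z chromosome 10 of 523 peaks were called (1.91%), and on the W chromosome none of 20, where 2 of the 6 libraries are male. No test of a chromosome against the others was made.

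Symbols were given to 64 of the gene models, in a shortened table that was ranked on a sex comparison of these same cultures, so the named genes are not a sample of the genome. Symbols of that table are those of chicken genes, and the paper defined orthologs by a protein search against chicken. Whether an emu model is that gene or a close relative of it was not checked here. The named genes had 91 peaks, of which 2 were called, beside 1.81% of all peaks, so that the share gives no result about them. By the strongest peak of each gene, 35 of the 64 had a positive difference and the median was 0.021. The called pair were a peak of the model with the symbol ACTG2, a smooth muscle actin, which fell, and a peak whose nearest gene is CPLX1, which rose. CPLX1 is a regulator of vesicle release known from neurons.

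ACTG2 on chromosome 22 (chr22:5199087-5199212, 675 bases upstream of the model) had 1995, 813 and 1646 TPM in high glucose against 3973, 3537 and 1619 TPM in F12. In each medium the male was the lowest library, so that the media overlapped across the sexes, at the F12 male, while within each sex high glucose was lower. The log2 difference was -1.03 ± 0.09 (SE, adjusted p = 0.0199). The 3 weaker ACTG2 peaks had differences of -0.75, -0.76 and -0.69, which did not pass the test (adjusted p = 0.0794, 0.143 and 0.334). The peak nearest to MYL9, a light chain of smooth muscle myosin, had 80.3, 40.8 and 142 TPM in high glucose against 136, 243 and 83.7 TPM in F12, with a difference of -0.85 that missed the threshold (adjusted p = 0.222). Of the 5 genes with a name among the 14 listed for actin, myosin and tubulin, 1 was called lower and none higher, beside 0.652% lower and 1.16% higher over all peaks, and 1 had a positive difference. The median of the 5 was -0.81, beside 0.028 over all peaks, and TAGLN3, which sits at that median, was widely spread, at 2.04 to 9.94 TPM in high glucose and 1.93 to 31.7 TPM in F12.

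The peak nearest to CPLX1 lies 70.5 kb from it on the Z chromosome and may not be its start. It had 58.4, 150 and 45.6 TPM in high glucose against 9.69, 15.3 and 45.4 TPM in F12 (log2 difference 1.90 ± 0.19, SE, adjusted p = 0.0216). The F12 male all but reached the lowest high glucose female. A peak 208 kb from GTF2A1L had a like order, with the male highest in each medium, at 35.4 TPM in high glucose and 17.7 TPM in F12, with overlap and an adjusted p of 0.0719.

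EGR1, an immediate early transcription factor that serum and growth factors induce, had 24.3, 22.5 and 27.7 TPM in high glucose against 40.9, 36.8 and 51.5 TPM in F12. The media did not overlap, and the log2 difference of -0.76 ± 0.15 (SE) had an adjusted p of 0.0711, short of a call. The listed EGR1 peak, 5.955 kb from the start, had 22.8, 1.94 and 10.1 TPM in high glucose against 21.5, 9.30 and 1.74 TPM in F12. There the media overlapped (log2 difference 0.10, adjusted p = 0.942). DNAJA1, a co-chaperone of HSP70, missed a call most narrowly: it had 126, 273 and 124 TPM in high glucose against 97.5, 96.0 and 219 TPM in F12 (log2 difference 0.35, adjusted p = 0.0502). Its gene lies on the Z chromosome, and the male of each medium was the highest. RPS6, a protein of the small ribosomal subunit, also on the Z, had 595, 1396 and 704 TPM in high glucose against 830, 777 and 1749 TPM in F12, a difference of -0.32 with an adjusted p of 0.120. In each of these Z-linked genes the male and female libraries were further apart than the 2 media. The 2 male libraries may come from a single embryo, so sex and embryo cannot be told apart here.

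**Figure D3:**
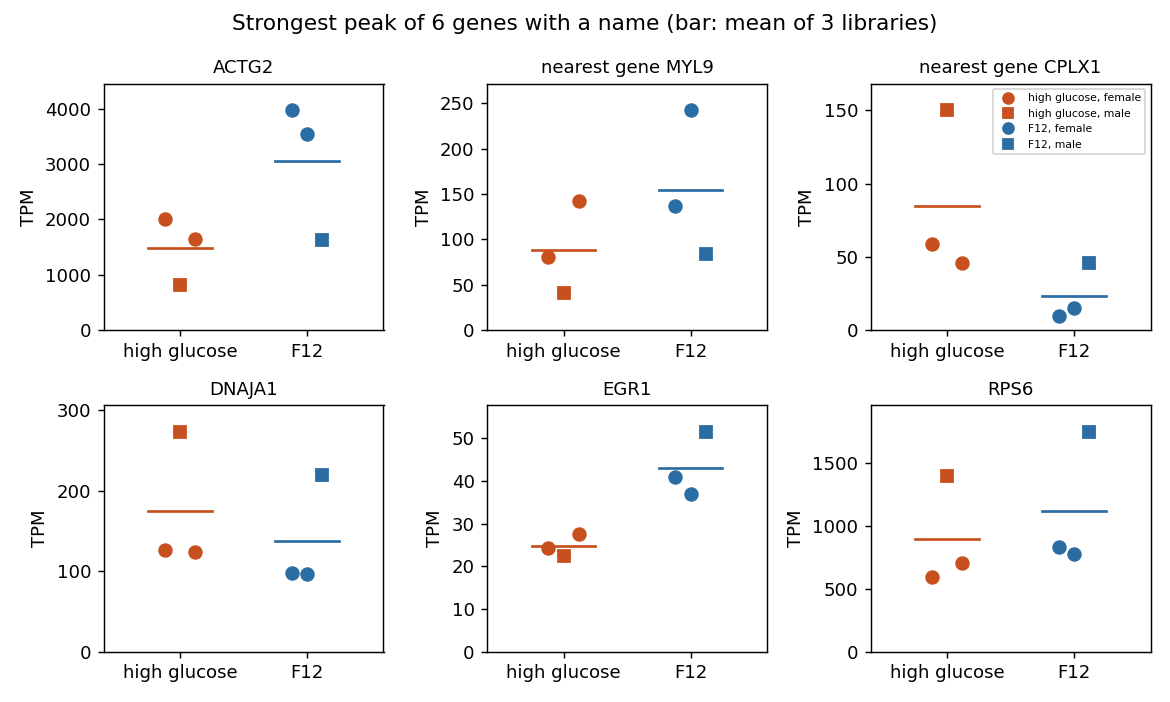
TPM of the strongest peak of 6 genes with a name, with high glucose (orange) left of F12 (blue), circles for females, squares for males and a bar at the mean of 3 libraries. ACTG2 is lower and the peak nearest CPLX1 higher in high glucose within each sex. EGR1 separates the media at 22.5 to 27.7 TPM in high glucose and 36.8 to 51.5 TPM in F12. DNAJA1 and RPS6 differ more between the male libraries, which may be a single embryo, and the female libraries than between the media.

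Lists of genes that the media could touch were matched only through these names, and most of their members were without one. Among the genes listed for glucose use, the peak nearest to the carbohydrate kinase FGGY, 31.9 kb from its model, had 19.6, 18.1 and 12.1 TPM in high glucose against 15.03, 10.2 and 10.2 TPM in F12. The media overlapped, and the log2 difference of 0.45 did not pass the test (adjusted p = 0.410). Of the 16 listed for serine synthesis and amino acid stress, PSAT1 (a step of serine synthesis, with a copy on the Z and one on the W) and FAM129A had names. The Z copy of PSAT1, by an intron peak, had 34.95, 122 and 41.3 TPM in high glucose against 42.3, 52.3 and 142 TPM in F12 (difference -0.27, adjusted p = 0.294). None of the 21 genes listed for cholesterol and fatty acid synthesis and none of the 8 for zinc, copper and iron handling had a name, so these were not analysed here. Of the matrix and adhesion genes 5 of 12 had a name and none was called. Among them TNC, the glycoprotein tenascin C and the sole fibroblast marker of 8 with a name, had 250, 51.0 and 59.3 TPM in high glucose against 470, 114 and 76.9 TPM in F12 at a peak 25.7 kb from its model. No gene of the marker lists for endothelium, macrophages, skeletal muscle, epithelium, nerve, cartilage or blood had a name, so the labelled cell type could not be checked further in this table. The lists for cell division and histones (4 named, median 0.13), ribosome and mitochondrion (3 named, median -0.05) and membrane traffic (10 named models, median 0.03) had no called member.

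RNA-seq had been made from 2 of the cultures, high glucose female 01 and F12 male 03, so that medium, sex and embryo cannot be told apart in it and no test was made. The CAGE of both cultures also went into the calls. The RNA-seq therefore compares assays of the same cultures and is no independent test of the medium. Of 58 genes with a promoter peak called higher and at least 20 RNA-seq counts in sum, 55 were higher in the high glucose library (94.8%), with a median log2 ratio of 0.67. The CAGE of the same 2 cultures gave a median of 0.84 for them. Of 35 genes with a promoter peak called lower, 27 were lower in the high glucose library, with a median of -0.21 and a CAGE median of -0.25. Over all 5382 genes with a promoter peak, 62.7% were higher in the high glucose library and the median was 0.07. RNA-seq counts of g888 were 48755 in the high glucose library against 17935 in the F12 library, and those of g12646 were 79522 against 40833, from 46224379 and 56421151 counts in all. For g8015, the gene with the lower intron peak, they were 43696 in high glucose against 118865 in F12. Some genes of the named peaks went against the CAGE direction. At g6515, whose promoter peak was higher, the counts were 5999 in high glucose against 8482 in F12 (log2 ratio -0.21). At g229, nearest to a lower peak, they were 229 against 204 (0.37). The Z-linked g12528, whose promoter peak was called higher, had 22386 counts in high glucose against 34278 in F12 (-0.33). ACTG2 went the other way in these 2 cultures in both assays, with 47491 counts in the high glucose library against 41922 in the F12 library and 1995 against 1619 TPM, the F12 library being the male one.

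**Figure D4:**
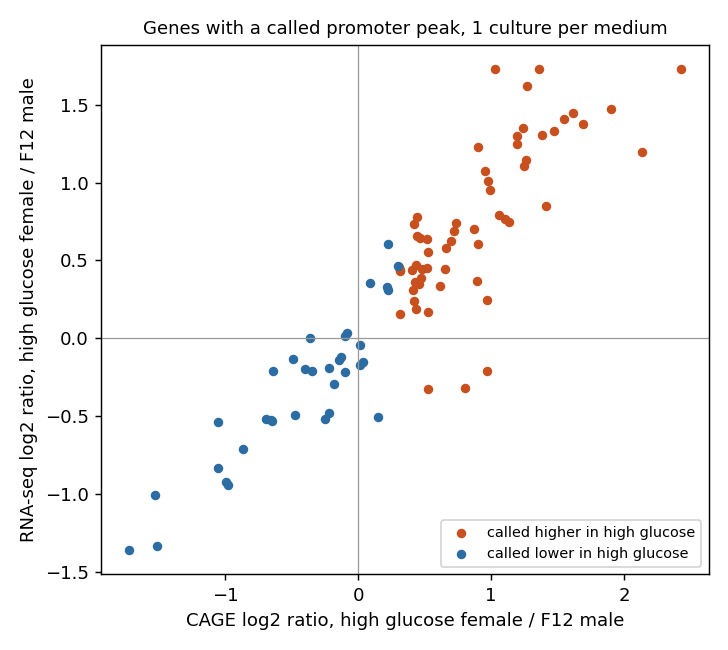
Log2 ratio of high glucose female 01 over F12 male 03 in CAGE (x axis) and RNA-seq (y axis) for genes with a called promoter peak, orange for those called higher in high glucose and blue for those called lower. Of the orange points 55 of 58 lie above 0 on the RNA-seq axis, and of the blue points 27 of 35 lie below 0.

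Whether the medium difference itself differed between the sexes was tested by an interaction term, with 1 male library in each medium. No peak passed by limma (0% of 10274, with 25 peaks, or 0.243%, at an unadjusted p under 0.05) and none by edgeR (27 at an unadjusted p under 0.05). With a single male in each medium, the spread in this fit came only from the female libraries. Far fewer peaks reached the unadjusted threshold than it would pass without any interaction. The test could therefore hardly call a peak, and it does not show that the sexes responded alike.

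The same fit in 5 of the other birds called 108 of 10024 peaks in turkey (1.08%) and 78 of 7305 in peafowl (1.07%). It called 7 of 9385 in quail (0.0746%), 1 of 8619 in duck (0.0116%) and 0 of 9084 in chicken (0%, with 470 at an unadjusted p under 0.05 by limma). In those birds libraries of the same number and sex were taken as 1 embryo in both media. In peafowl the number 01 is used for a male and again for a female, so that the number alone does not name an embryo there. With the embryo as a block the counts were 234 in turkey, 959 in peafowl and 34 in quail. The difference between species was not tested. By the strongest promoter peak of the symbol, ACTG2 had a log2 difference of -1.02 in duck, with 353, 284 and 230 TPM in high glucose against 659, 537 and 542 TPM in F12. It had -0.90 in chicken, beside -1.03 in emu. The chicken values were 717, 343 and 1170 TPM in high glucose against 1439, 1290 and 999 TPM in F12. There the media overlapped, and the third embryo was higher in high glucose. The quail value of 0.35 rests on 1 embryo, at 716 TPM in high glucose against 135 TPM in F12, while the other embryos had 41.0 against 73.7 TPM and 10.6 against 15.6 TPM. EGR1, at -0.76 in emu, had -0.90 in duck, 0.67 in chicken and 0.62 in quail. DNAJA1, at 0.35 in emu, had 0.19 in duck, 0.61 in chicken and 0.70 in quail. RPS6, at -0.32 in emu, had -0.23 in duck, -0.12 in chicken and -0.20 in quail. These values are a description, without a test.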

How the data were processed

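CAGE was made with the nAnTi-CAGE protocol from total RNA and sequenced on an Illumina HiSeq2500. The authors aligned the tags to the emu assembly ZJU1.0, called peaks with at least 10 TPM in one sample, annotated them to gene models with ChIPseeker, and deposited the tags of each peak and library as TPM, which here equals RPM. For RNA-seq the authors deposited raw counts per transcript model beside FPKM. Counts were summed over the models of a gene, so that reads shared by models may count more than once, and divided by the library total. The log2 ratios rest on CPM + 1, and FPKM were not used in the text.

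All 10274 emu peaks were tested in R 4.3.3 with limma 3.58.1, in which log2(TPM + 1) was fitted on medium and sex and the prior variance followed the mean. The pseudocount understates the change of low peaks. Every TPM value was a whole multiple of 1 tag within 0.05 tags, so tags could be recovered for edgeR 4.0.16 and DESeq2 1.42.0. The code was tested on simulated data. Named were the 10 peaks of smallest p in each direction with at least 10 TPM in one medium and no overlap, further peaks of their genes, and genes with a symbol, by their strongest peak and the peak listed. A promoter peak lies within 3 kb of a start, and an intergenic one was assigned to the nearest start. The paper assigned peaks to transcripts of the same strand, so a gene on the other strand may lie nearer. The gene lists and the genes in them were chosen with earlier results of these data known. Alternatives were other scalings, pseudocounts, filters, tools and subsets of libraries. No reference sequence was used. A gene of the list for glucose use is not reported here.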

Additional observations from a re-analysis of the deposited data

How the results depend on the processing

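Against 186 called peaks, 180 were called with TMM scaling, 174 and 195 with pseudocounts of 0.1 and 5 TPM, 161 above a mean of 10 TPM, 175 after summing peaks per gene, and 175 by edgeR's quasi-likelihood test. The excess of higher calls depended on the scaling. It was 119 higher and 67 lower in the main fit, 105 and 75 with TMM scaling, and 101 and 74 by the quasi-likelihood test. The median difference over all peaks was 0.028 in the main fit and -0.001 with TMM scaling. Without the sex term 49 were called, among promoter peaks only 85, and at an adjusted p under 0.1 there were 497. The likelihood ratio test of edgeR called 550 and DESeq2 575. The female libraries alone, 2 against 2, gave 0 by limma, with 987 at an unadjusted p under 0.05. Leaving out 1 library gave 0 to 40 calls, and the fits without a male library again compared the media among females only. In the fits without 1 library the 20 named peaks had adjusted p from 0.0252 to 0.24 by limma. The difference in promoter share stayed negative, at -0.576 to -0.0551 percentage points without 1 library. As a replicate block, the label numbers beside sex gave 2810 calls with a single residual degree of freedom, and without sex 0, with 1123 at an unadjusted p under 0.05. Deviations from the media's means correlated at 0.85 for the libraries numbered 01, -0.424 for 02 and -0.42 for 03, so the numbers were not taken as pairs. They correlated at 0.848 between both males and at 0.748 between high glucose female 03 and F12 female 02, so that the libraries fall into 3 pairs across the media that only in part follow the labels. The sex term of the main fit takes in the pair of males, while the pairing among the females is ignored. In the other birds an embryo block moved the count to 34 in quail, 234 in turkey and 959 in peafowl, against 7, 108 and 78. The interaction kept 0 calls by limma at an adjusted p under 0.1, with 25 at an unadjusted p under 0.05, and by edgeR, with 27. With 3 libraries per medium, peaks that were not called are not shown to be equal between the media.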
